A study of Rattus norvegicus with 32 samples.

Results

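The genes followed here are 9 genes of ketone use and branched-chain amino acid catabolism in rat gastrocnemius, a calf muscle: the ketolytic enzymes Bdh1, Oxct1 and Acat1, the transcription factor Klf15, the transaminase Bcat2, the branched-chain ketoacid dehydrogenase subunits Bckdha, Bckdhb and Dbt, and the kinase Bckdk. They were chosen by symbol and by having a row in the deposited table. All 9 symbols were found among its 12901 genes, and 9 of 9 passed the filter on low counts that left 11594 genes for testing. That they could be measured is part of the choice and no result. The list was also drawn up with earlier results of these libraries known, among them higher Klf15 after cold in control muscle, so the tests below are no independent evidence.

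RNA of male rats aged 20 weeks, chow-fed according to the series title, was sequenced from the 3′ end of the transcripts. The rats were controls, which one label calls wild type, or knockouts of UCP1, the mitochondrial uncoupling protein that lets brown fat produce heat. Muscle was taken at room temperature (RT) or following 2 weeks at 4 °C, which gave 7 control libraries at room temperature (control_RT), 7 in the cold (control_4C), 9 knockout libraries at room temperature (KO_RT) and 9 in the cold (KO_4C). The labels name no further allele and do not say which libraries share a litter or were processed together, so the p-values measure the spread between these libraries. Ucp1 itself is not analysed here and gives no check of the genotypes. All 9 muscle markers looked up, such as Ckm and Acta1, were in the table, and their sum lay between 81160.3 and 127729 CPM (counts scaled to the TMM-adjusted library total). The KO_RT columns KO8 and KO9 could be tied to their group but not to a sample number and are called by their column names. Control_RT replicates 2 and 3, KO_RT replicate 3 and column KO8 had the lowest levels of their groups for a group of 97 transcripts. They are called the libraries that stood apart, though in control_RT only by degree. There replicate 3 had a mean log2 CPM of 2.81 over these transcripts, and replicates 6 and 5 had 3.14 and 3.22. Results that rest on the libraries that stood apart are given with and without them.

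Muscle burns ketone bodies made by the liver. Bdh1 oxidises 3-hydroxybutyrate to acetoacetate in the mitochondrion, Oxct1 transfers coenzyme A to acetoacetate, and Acat1 splits the product into acetyl-CoA. Leucine, isoleucine and valine are broken down largely outside the liver: Bcat2 removes their amino group, the dehydrogenase complex of Bckdha, Bckdhb, Dbt and the shared subunit Dld oxidises the ketoacids, and Bckdk turns the complex off by phosphorylating Bckdha. Klf15 is a glucocorticoid-induced factor known in mice to activate Bcat2 and other genes of amino acid breakdown.

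After cold Bckdk was lower and Bdh1, Klf15 and Oxct1 were higher in both genotypes. Acat1 and Dbt passed the test for cold in control rats and not in knockout rats, but the main fit called a difference between the genotypes' cold responses for no member. In control muscle 6 of 9 members passed an adjusted p of 0.05, 5 higher and 1 lower, where 20.7% of all tested genes passed (12.4% higher and 8.28% lower). Without Klf15, whose rise was known when the list was made, 5 of 8 passed, 4 higher and 1 lower. In knockout muscle 4 of 9 passed, 3 higher and 1 lower, against 13.8% of all genes (7.49% higher and 6.28% lower). At room temperature 4 of 9 were higher in knockout than in control muscle and 0 lower, against 2.61% of all genes (2.35% higher and 0.259% lower). That share rests on 303 genes, a number that went from 80 without control_RT replicate 3 to 792 without KO_RT replicate 3. It moved by over 1.5 times also without control_RT replicate 2, 5 or 6, KO_RT replicate 5, 7, 8 or 9, or KO_RT column KO8 or KO9. The cold contrasts share their room-temperature libraries with the genotype contrast, so these counts are not independent of each other. Klf15 is among the 4 genes higher in knockout muscle at room temperature. Its known rise was over the same control_RT libraries, so this call too is not independent of how the list was made. An index of those 97 transcripts was lower in every control_RT than in every control_4C library, and with it as a covariate 1 of the 5 control cold calls other than Klf15 and 0 of the 4 genotype calls held. Over all genes the same fit took the calls from 2399 to 368 for cold in control rats and from 303 to 1 for genotype at room temperature, so the members' calls were lost along with most others. The median log2 change of the 9 was 0.36 for cold in control rats (all genes 0.03), 0.10 for cold in knockout rats (all genes 0.01) and 0.26 for knockout against control at room temperature (all genes 0.00344).

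**Figure D1:**
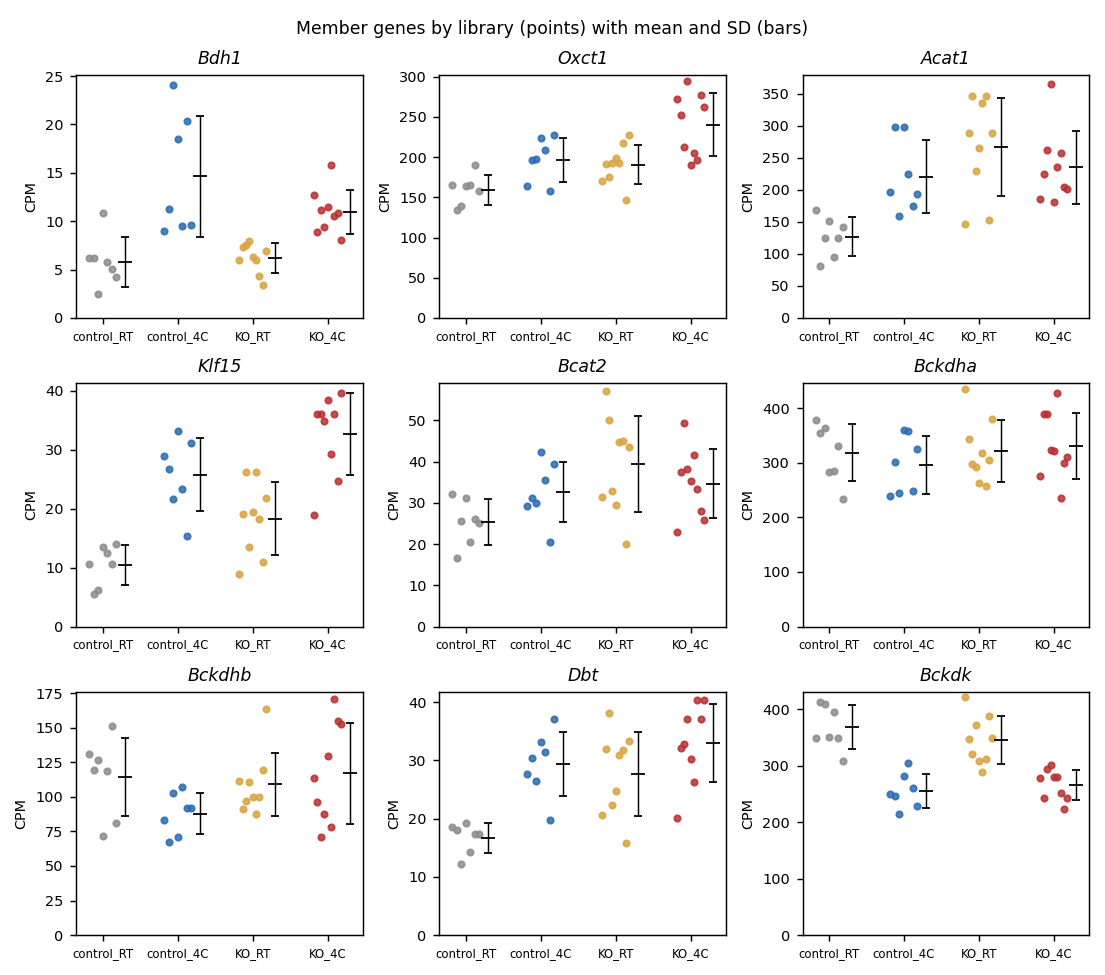
Level of each member gene in every library (points, in CPM) by group, with the group mean and SD beside the points. Bckdk lies lower in the cold groups, with no overlap between the control groups (as for 5.75% of all genes), while Bckdha overlaps in all 4 groups.

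The windows around the gene starts of Klf15 and Dbt, which varied together between libraries, and of Bckdk, which moved the other way, are shown for their motifs. They come from RefSeq, build GRCr8 (250 bases before to 50 after the start, 5′ to 3′ on the gene's strand), which held 8 of the 9 genes. Klf15 lies at chr4:124522765-124523064, Dbt at chr2:207166410-207166709 and Bckdk at chr1:191945559-191945858, all on the plus strand. Capitals mark matches on either strand to the CACCC box CCACCC, which KLF factors bind, the E-box CACGTG, which clock factors bind, and the glucocorticoid half-site AGAACA, a part of the receptor's motif.
Klf15: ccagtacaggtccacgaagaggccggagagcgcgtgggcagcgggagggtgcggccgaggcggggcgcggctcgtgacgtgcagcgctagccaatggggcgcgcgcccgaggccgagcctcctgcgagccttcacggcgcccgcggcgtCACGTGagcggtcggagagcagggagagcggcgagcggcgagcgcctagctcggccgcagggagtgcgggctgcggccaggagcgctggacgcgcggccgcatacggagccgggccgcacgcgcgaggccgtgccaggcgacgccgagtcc
Dbt: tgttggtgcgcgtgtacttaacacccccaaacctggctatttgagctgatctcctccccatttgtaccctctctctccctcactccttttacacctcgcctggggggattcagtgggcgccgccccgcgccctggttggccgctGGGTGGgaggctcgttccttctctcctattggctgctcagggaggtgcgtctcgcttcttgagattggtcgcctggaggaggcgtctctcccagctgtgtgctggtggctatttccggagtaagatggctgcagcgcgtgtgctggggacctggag
Bckdk: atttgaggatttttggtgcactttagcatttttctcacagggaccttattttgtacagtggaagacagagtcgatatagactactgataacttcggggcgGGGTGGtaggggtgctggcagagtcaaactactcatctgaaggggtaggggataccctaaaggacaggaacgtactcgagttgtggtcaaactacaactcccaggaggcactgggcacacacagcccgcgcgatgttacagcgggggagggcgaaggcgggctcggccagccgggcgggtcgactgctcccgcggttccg
Klf15 held 1 E-box, a motif in 6.42% of the 33469 windows of the table. Dbt and Bckdk held 1 CACCC box each, 106 and 150 bases before the start, and Bckdhb held 2, where 29.4% of all windows hold one. The glucocorticoid half-site, in 20.7% of windows, was matched only in Bckdhb among the 8. A match is a run of letters and not a bound site.

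Among the ketone-using enzymes, Bdh1 (ENSRNOG00000001736) ran from 2.43 to 10.8 CPM in control_RT (median 5.78), from 8.98 to 24.1 in control_4C (median 11.3), from 3.44 to 7.99 in KO_RT (median 6.32) and from 8.04 to 15.8 in KO_4C (median 10.9). The knockout groups did not overlap, as for 1.66% of all genes, and 7 of 7 cold control libraries lay above the control_RT mean. The level was 2.50-fold higher after cold in control rats (log2 1.32 ± 0.24, adjusted p = 0.00025) and 1.77-fold in knockout rats (log2 0.82 ± 0.21, adjusted p = 0.0071). The cold changes of the genotypes differed by log2 -0.50 ± 0.32 (adjusted p = 0.524). Bdh1 had a mean of 78.6 counts per control_RT library, and 26 in the lowest, so counting error weighs on its spread. An uncharacterised lncRNA is annotated over it.

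Control libraries with most Bdh1 were also among those with most intestinal epithelial transcripts. The summed level of 8 intestinal markers was highest in control_RT replicate 4 (687 CPM) and in control_4C replicates 3 (896 CPM) and 6 (755 CPM), against 209 to 342 CPM in KO_RT and 171 to 256 in KO_4C. After cold 3 of these 8 markers were higher and 0 lower in control rats (median log2 0.42), beside 20.7% of all genes called. In knockout rats 0 of 8 were called (median log2 -0.21), beside 13.8% of all genes. Bdh1 was highest of its group in control_RT replicate 4 (10.8 CPM) and in control_4C replicates 3 and 6 (24.1 and 20.4 CPM). Over 32 libraries with group means removed, Bdh1 correlated with the marker sum at r = 0.65. Without those 3 libraries the cold change was log2 1.20 ± 0.22 in control rats (adjusted p = 0.000535) and 0.82 ± 0.17 in knockout rats (adjusted p = 0.00105). With the marker sum as a covariate it was 1.13 ± 0.19 (adjusted p = 6.21e-05) and 1.02 ± 0.17 (adjusted p = 4.23e-05).

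Oxct1 (ENSRNOG00000043094), the step that commits acetoacetate to oxidation, ran from 135 to 191 CPM in control_RT (median 164), from 157 to 227 in control_4C (median 198), from 147 to 228 in KO_RT (median 192) and from 190.1 to 295 in KO_4C (median 253). The rise was small, 1.23-fold in control rats (log2 0.30 ± 0.11, adjusted p = 0.0441) and 1.26-fold in knockout rats (log2 0.34 ± 0.10, adjusted p = 0.0144). Each of 15 libraries, 11 of them control libraries, ended the control call when left out alone (log2 0.25 to 0.34, adjusted p = 0.0266 to 0.109 over all left-out libraries). With the 4 libraries that stood apart left out, neither was called (log2 0.21 ± 0.11, adjusted p = 0.189, in control rats and 0.27 ± 0.09, adjusted p = 0.0522, in knockout rats). Knockout muscle had 1.19 times the control level at room temperature (adjusted p = 0.179) and 1.22 times at 4 °C (adjusted p = 0.138), neither called.

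Acat1 (ENSRNOG00000007862), which serves isoleucine breakdown as well as ketolysis, ran from 80.5 to 169 CPM in control_RT (median 125), from 159 to 299 in control_4C (median 196), from 147 to 347 in KO_RT (median 289) and from 182 to 366 in KO_4C (median 224). Room-temperature controls were the low group: 7 of 9 KO_RT and 6 of 7 control_4C libraries lay above all of them. After cold Acat1 was 1.74-fold higher in control rats (log2 0.80 ± 0.20, adjusted p = 0.00387), a value that stood at log2 0.68 ± 0.17 (adjusted p = 0.00648) without the 4 libraries and at 0.14 ± 0.17 (adjusted p = 0.737) with the transcript index as a covariate. Room-temperature knockouts had 2.10 times the control level (log2 1.07 ± 0.19, adjusted p = 0.0091), rank 3 by p among 11594 genes. In knockout rats cold gave log2 -0.18 ± 0.17 (adjusted p = 0.532), and at 4 °C knockout stood against control at log2 0.09 ± 0.18 (adjusted p = 0.887). The cold responses differed by log2 -0.98 ± 0.26 (adjusted p = 0.106), which was not called. It was called by DESeq2 (adjusted p = 0.0231), with the 4 libraries left out (-1.04, adjusted p = 0.0107) and without KO_RT replicate 3 or column KO8 alone (log2 -1.08 to -0.89, adjusted p = 0.0167 to 0.183 over all left-out libraries). The reads of a pseudogene annotated over Acat1 may be counted with it.

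Turning to the regulator, Klf15 (ENSRNOG00000017808) ran from 5.51 to 14.1 CPM in control_RT (median 10.6), from 15.3 to 33.2 in control_4C (median 26.8), from 8.91 to 26.3 in KO_RT (median 19.1) and from 19.0 to 39.6 in KO_4C (median 36.0). Every cold control library exceeded every room-temperature one, and groups were as separate for 5.75% of all genes. KO_4C overlapped KO_RT through its replicates 1 and 8. After cold Klf15 stood 2.46-fold higher in control rats (log2 1.30 ± 0.22), a rise known when the list was made and given without a test. In knockout rats it rose 1.79-fold (log2 0.84 ± 0.19, adjusted p = 0.00294). Room-temperature knockouts had 1.75 times the control level (log2 0.81 ± 0.21, adjusted p = 0.0347). Each of 9 libraries, 3 control_RT and 6 KO_RT, ended that call when left out (log2 0.68 to 0.88, adjusted p = 0.00487 to 0.103 over all left-out libraries). At 4 °C the genotypes differed by log2 0.34 ± 0.21 (adjusted p = 0.471), and the cold responses by -0.46 ± 0.29 (adjusted p = 0.524), neither called.

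Bcat2 (ENSRNOG00000020956), the mitochondrial transaminase that opens the pathway, ran from 16.7 to 32.2 CPM in control_RT (median 25.6), from 20.4 to 42.3 in control_4C (median 31.1), from 20.1 to 57.0 in KO_RT (median 43.6) and from 22.8 to 49.4 in KO_4C (median 35.2). All 4 ranges overlapped. It passed in 1 pairwise contrast, 1.56-fold higher in knockout than in control muscle at room temperature (log2 0.64 ± 0.18, adjusted p = 0.044). Leaving out any of 17 libraries, in all 4 groups, ended that call (log2 0.54 to 0.70, adjusted p = 0.00757 to 0.135 over all left-out libraries). After cold Bcat2 stood at log2 0.36 ± 0.19 in control rats (adjusted p = 0.173) and at -0.18 ± 0.16 in knockout rats (adjusted p = 0.508). Hsd17b14 is annotated over Bcat2, and their reads could mix if strand was not used in counting.

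Subunits of the dehydrogenase complex gave different patterns. Dbt (ENSRNOG00000015029), the core transacylase, ran from 12.2 to 19.2 CPM in control_RT (median 17.4), from 19.8 to 37.1 in control_4C (median 30.4), from 15.8 to 38.1 in KO_RT (median 30.9) and from 20.1 to 40.4 in KO_4C (median 32.8). The control groups did not overlap, as for 5.75% of all genes. In KO_RT 8 of 9 libraries exceeded every control_RT library, column KO8 being the exception. Dbt was 1.76-fold higher after cold in control rats (log2 0.82 ± 0.16, adjusted p = 0.000507) and was 1.66-fold higher in knockout than in control muscle at room temperature (log2 0.73 ± 0.15, adjusted p = 0.0107). In knockout rats the cold contrast gave log2 0.24 ± 0.14 (adjusted p = 0.273), and the cold responses differed by -0.58 ± 0.21 (adjusted p = 0.231).

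Both decarboxylase subunits lacked a call in every contrast. Bckdha (ENSRNOG00000020607), the subunit that Bckdk phosphorylates, ran from 233 to 378 CPM in control_RT (median 331), from 239 to 359.6 in control_4C (median 302), from 257 to 436 in KO_RT (median 306) and from 235 to 427 in KO_4C (median 321). All groups overlapped, and the 95% interval of its log2 cold change was -0.36 to 0.15 in control rats and -0.19 to 0.27 in knockout rats. Exosc5 is annotated over Bckdha. Bckdhb (ENSRNOG00000009928), its partner, ran from 71.4 to 151 CPM in control_RT (median 119), from 67.1 to 107 in control_4C (median 91.7), from 87.8 to 163 in KO_RT (median 99.8) and from 71.1 to 171 in KO_4C (median 113). After cold it stood at log2 -0.38 ± 0.18 in control rats (adjusted p = 0.137), with 7 of 7 cold libraries below the control_RT mean, and at 0.10 ± 0.16 in knockout rats (adjusted p = 0.718). Without control_RT replicate 4 the control value was called (log2 -0.48, adjusted p = 0.0464).

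The kinase Bckdk (ENSRNOG00000019485) was the member that fell. It ran from 309 to 414 CPM in control_RT (median 351), from 214 to 305 in control_4C (median 249.99), from 289 to 421 in KO_RT (median 348) and from 223 to 301 in KO_4C (median 278). Control groups did not overlap, as for 5.75% of all genes, and 7 of 9 KO_4C libraries lay below every KO_RT library. After cold Bckdk stood at log2 -0.53 ± 0.09 in control rats (adjusted p = 0.00015) and -0.38 ± 0.08 in knockout rats (adjusted p = 0.00122), and no single left-out library ended either call. The slow-fibre covariate, itself higher after cold, ended both (-0.40 ± 0.13, adjusted p = 0.0677, and -0.27 ± 0.11, adjusted p = 0.20). The transcript index as a covariate ended the control call (-0.30 ± 0.10, adjusted p = 0.102) and not the knockout call (-0.29 ± 0.07, adjusted p = 0.00469). The cold responses differed by log2 0.15 ± 0.12 (adjusted p = 0.638, 95% interval -0.09 to 0.39). Knockout stood against control at log2 -0.09 ± 0.09 at room temperature (adjusted p = 0.643) and 0.06 ± 0.09 at 4 °C (adjusted p = 0.832).

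**Figure D2:**
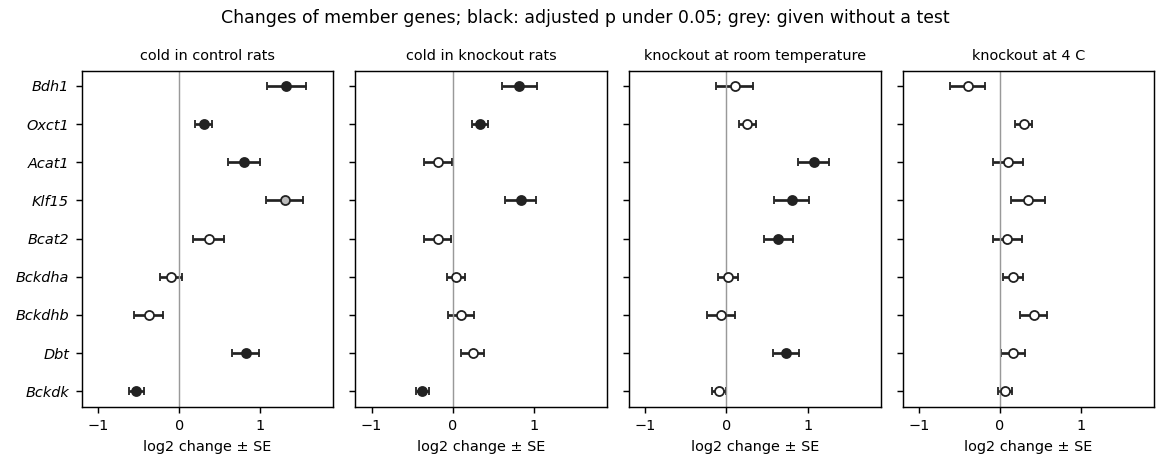
Log2 change of each member gene (points) with its SE (bars) in 4 contrasts; black points passed an adjusted p of 0.05, and Klf15 after cold in control rats, in grey, is given without a test. Bckdk is the black point left of 0 in both cold panels, and the panel for 4 °C has none.

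In the cold the genotypes were not told apart for any member: 0 of 9 passed by edgeR's quasi-likelihood test and 0 by DESeq2. By edgeR 2 members had an unadjusted p under 0.05, as had 1695 of all 11594 genes. The 2 members were Oxct1 (log2 0.29 ± 0.10, adjusted p = 0.138) and Bckdhb (0.41 ± 0.17, adjusted p = 0.225). Over all genes 0.0518% passed (0.0345% higher and 0.0173% lower), and 0.0949% had groups that did not overlap, none of them a member. With relative log expression factors in place of TMM the split over all genes was 11 higher and 110 lower. For the difference between cold responses 0 of 9 members passed by edgeR, against 0.0259% of all genes (0.00863% higher and 0.0173% lower). Acat1, Bcat2 and Dbt had an unadjusted p under 0.05 there, as had 1499 of all 11594 genes. Their values were all below 0, but these members also varied together within groups. DESeq2 called 1 member (Acat1).

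Other genes of ketone handling came from a list of 10, of which 9 were tested. After cold 2 were higher and 0 lower in control rats (median log2 0.21), and 3 and 0 in knockout rats (median 0.05), where 20.7% and 13.8% of all genes were called. Acss1, which makes acetyl-CoA from acetate, rose by log2 0.57 ± 0.20 in control rats (adjusted p = 0.0432) and 0.70 ± 0.18 in knockout rats (adjusted p = 0.00714). Slc16a1, a transporter of ketone bodies and lactate, was called in no pairwise contrast (cold log2 -0.16 ± 0.17 and -0.19 ± 0.15). Between genotypes 0 of the 9 were called at either temperature.

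Among other branched-chain genes, 25 of 29 listed symbols were tested. After cold 6 were higher and 2 lower in control rats (median log2 0.08), and 2 and 3 in knockout rats (median 0.12), beside the same 20.7% and 13.8% of all genes. Those that rose in control rats included Hibadh (log2 1.25 ± 0.25, adjusted p = 0.000736) and Aldh6a1 (1.23 ± 0.28, adjusted p = 0.00233), successive enzymes of valine breakdown, and Slc7a8 (0.71 ± 0.18, adjusted p = 0.0057), an amino acid transporter that also rose in knockout rats (0.52 ± 0.16, adjusted p = 0.028). Pccb, a subunit of propionyl-CoA carboxylase, fell in both genotypes (log2 -0.41 ± 0.11, adjusted p = 0.00625, and -0.30 ± 0.09, adjusted p = 0.0309). At room temperature 2 of the 25 were higher in knockout muscle and 0 lower, where 2.61% of all genes were called. Aldh6a1 averaged 17.8 ± 6.57 CPM in control_RT and 40.4 ± 17.2 in KO_RT (SD, adjusted p = 0.0171), and Hibadh 47.7 ± 15.3 and 90.6 ± 38.5 CPM (SD, adjusted p = 0.0296). The shared subunit Dld (cold log2 -0.06 ± 0.08 and -0.01 ± 0.07), the phosphatase Ppm1k, which reverses the action of Bckdk (0.02 ± 0.16 and -0.01 ± 0.14), and Ivd, the next enzyme of leucine breakdown (-0.15 ± 0.12 and -0.11 ± 0.11), were called in no pairwise contrast.

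Of 9 tested genes of amino group handling, 1 was higher and 2 lower after cold in control rats, and 1 and 0 in knockout rats, again beside 20.7% and 13.8% of all genes. The glutamine transporter Slc1a5 rose in both (log2 0.96 ± 0.26, adjusted p = 0.00689, and 0.67 ± 0.23, adjusted p = 0.0439). Ampd1, the AMP deaminase of muscle (-0.63 ± 0.16, adjusted p = 0.00491), and Slc38a2, another amino acid transporter (-0.28 ± 0.10, adjusted p = 0.0468), fell in control rats. Of 10 tested genes tied to glucocorticoid signalling, 2 were higher and 1 lower after cold in control rats. In knockout rats 1 was higher and 0 lower, beside the same 20.7% and 13.8% of all genes. Fkbp5, a glucocorticoid-induced chaperone (0.60 ± 0.16, adjusted p = 0.00777), and the transcription factor Cebpb (0.78 ± 0.27, adjusted p = 0.0376) rose in control rats, where the ubiquitin ligase Fbxo32 fell (-0.39 ± 0.14, adjusted p = 0.0372). Ddit4, a stress-induced inhibitor of mTORC1 signalling, rose in knockout rats (0.75 ± 0.13, adjusted p = 0.000144), and Tsc22d3, another glucocorticoid-induced gene, stood at 0.12 ± 0.12 and -0.05 ± 0.11. Neither list had a call between genotypes.

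Within groups, Acat1, Klf15, Bcat2 and Dbt rose and fell together from library to library. With group means removed, log2 CPM over 32 libraries correlated at r = 0.73 between Acat1 and Bcat2, 0.71 between Klf15 and Dbt, 0.66 between Acat1 and Klf15 and 0.62 between Acat1 and Dbt. Bdh1 lay between -0.21 and 0.15 with the other members, and Bckdk correlated at -0.48 with Klf15 and 0.51 with Bckdha. Without the 4 libraries that stood apart, Klf15 and Dbt were at r = 0.72, Acat1 and Klf15 at 0.43 and Klf15 and Bckdk at -0.14.

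The genes most like each member, of 6933 candidates, were found by the same measure. They were Serpinb1a (r = 0.77), Slc39a9 (0.76) and Car4 (0.76) for Bdh1, Ppa2 (r = 0.68), Acadm (0.67) and Sdha (0.66) for Oxct1 and Spcs2 (r = 0.85), Tmed7 (0.84) and Slc3a2 (0.83) for Acat1. For Klf15 they were Aldh6a1 (r = 0.85), Lgmn (0.83) and Car3 (0.83), the first being the valine enzyme described above. Bcat2 was most like Hexim1 (r = 0.79), Scn4b (0.78) and Steap4 (0.76), and Dbt most like Spcs3 (r = 0.78), Nln (0.77) and Acyp2 (0.75). For Bckdha they were Nudc (r = 0.86), G6pc3 (0.81) and Hoxc10 (0.81), for Bckdhb Cpxm2 (r = 0.66), Fance (0.64) and Tmem192 (0.64) and for Bckdk Ccdc124 (r = 0.75), Eif3b (0.75) and Flywch1 (0.74). Without the 4 libraries that stood apart these values were 0.69, 0.62 and 0.64 for the genes named for Klf15, 0.77, 0.71 and 0.67 for those of Acat1, and 0.55 to 0.85 over all of them. Libraries share depth and RNA quality, so these values are a description.

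**Figure D3:**
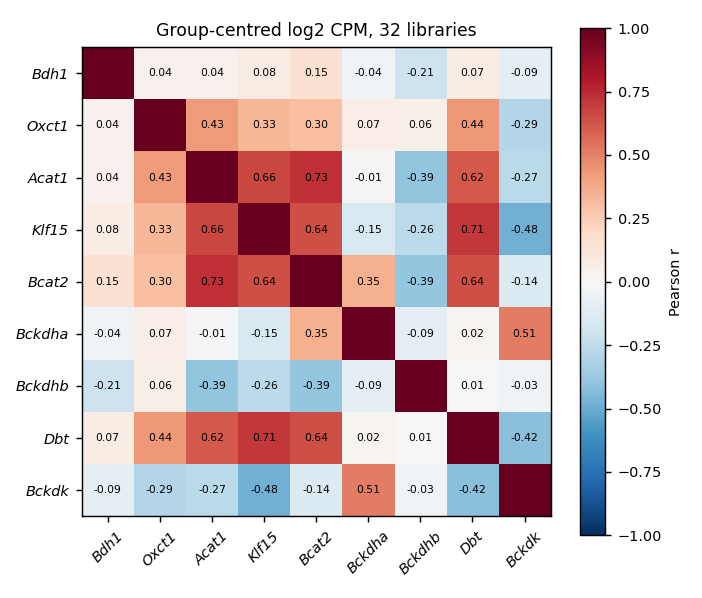
Pearson correlation between member genes of log2 CPM with each group's mean removed, over 32 libraries (colour and number). Acat1, Klf15, Bcat2 and Dbt form the block of high values, 0.62 to 0.73.

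Several members also followed a measure on which libraries stood apart. An index of transcript loss was made after the data were seen: the mean log2 CPM of 97 genes at least 2 log2 units lower in KO_RT replicate 3 than in the median of its group's other libraries, members left out. A higher index means higher levels of these 97 genes, and whether transcripts were lost from any library was not tested. The index ran from 2.19 to 4.12 in control_RT, 4.68 to 5.01 in control_4C, 2.07 to 5.03 in KO_RT and 4.42 to 5.17 in KO_4C. The control groups did not overlap on it, and column KO8 (2.89) and replicate 3 (2.07, low by construction) were the low ones of KO_RT. With group means removed, Acat1 correlated with the index at r = 0.76, Klf15 at 0.75, Dbt at 0.56, Bcat2 at 0.53, Bckdk at -0.61 and Bdh1 at 0.25. Without KO_RT replicate 3, which defined the index, Acat1 was at 0.71, Klf15 at 0.70, Dbt at 0.57, Bcat2 at 0.59 and Bckdk at -0.52 (n = 31). Without all 4 libraries they were at 0.54, 0.39, 0.46, 0.25 and -0.33 (n = 28).

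**Figure D4:**
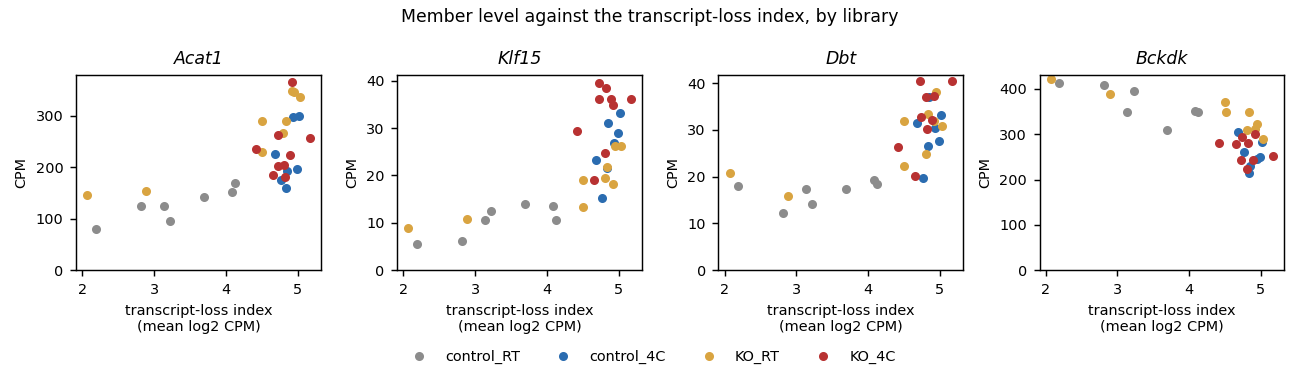
CPM of 4 member genes against the transcript-loss index, 1 point per library, coloured by group. All control_RT libraries and 2 of KO_RT lie to the left of the others, where Acat1, Klf15 and Dbt are low and Bckdk is high.

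With the index as a covariate, Bdh1 kept its cold call in control rats (log2 1.10 ± 0.30, adjusted p = 0.0383). Acat1 (0.14 ± 0.17, adjusted p = 0.737), Dbt (0.41 ± 0.18, adjusted p = 0.216), Oxct1 (0.12 ± 0.13, adjusted p = 0.701) and Bckdk (-0.30 ± 0.10, adjusted p = 0.102) were not called there, and Klf15 stood at 0.54 ± 0.20. The 4 genotype calls at room temperature ended, at 0.62 ± 0.14 for Acat1 (adjusted p = 0.0752), 0.28 ± 0.17 for Klf15 (adjusted p = 0.519), 0.36 ± 0.17 for Bcat2 (adjusted p = 0.40) and 0.45 ± 0.15 for Dbt (adjusted p = 0.198). In knockout rats the cold calls of Bdh1, Oxct1, Klf15 and Bckdk were kept (log2 0.75, 0.28, 0.64 and -0.29), and Acat1 was called lower (-0.36 ± 0.12, adjusted p = 0.0431).

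The 4 libraries that stood apart were control_RT replicates 2 and 3, KO_RT replicate 3 and column KO8. With them left out and no covariate, Bdh1 and Bckdk kept their cold calls in both genotypes, Acat1 and Dbt theirs in control rats (Dbt at log2 0.76 ± 0.15, adjusted p = 0.000683) and Klf15 its call in knockout rats. Klf15 in control rats stood at 1.06 ± 0.18, and the genotype calls at room temperature were kept for Acat1 (log2 1.12, adjusted p = 0.000174), Klf15 (0.73, 0.0105), Bcat2 (0.66, 0.0238) and Dbt (0.80, 0.000929). Since the index separates the control groups, with or without these 4 libraries, its part in their contrast and that of cold cannot be told apart. Fitted on control_RT and KO_RT alone, the genotype contrast gave 0 calls over all genes by edgeR, with Acat1 at log2 1.06 (adjusted p = 0.0911), Dbt at 0.73 (0.0911), Bcat2 at 0.63 (0.135) and Klf15 at 0.80 (0.142).

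**Figure D5:**
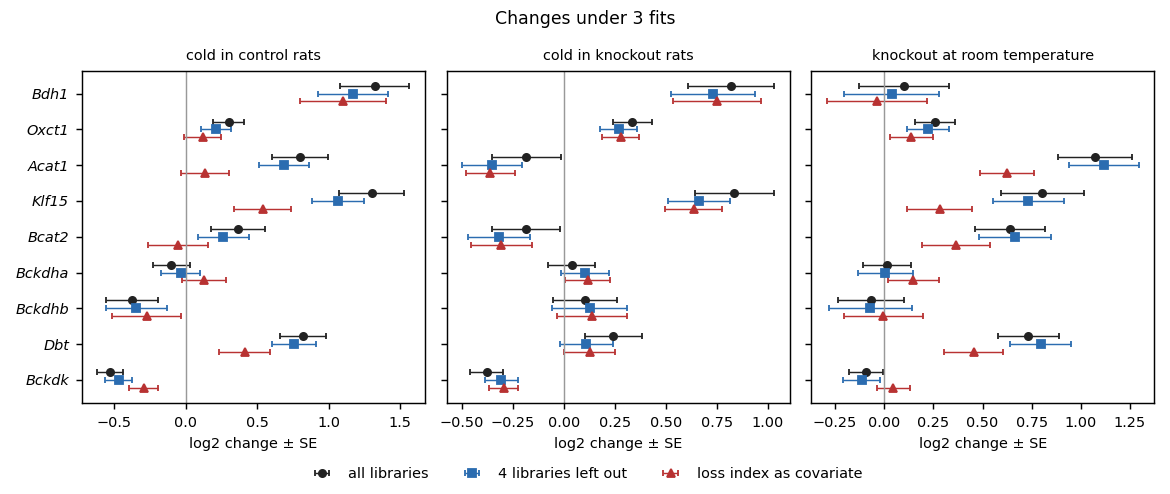
Log2 change with SE of each member in 3 contrasts under 3 fits: all libraries, 4 libraries left out, and the transcript-loss index as a covariate. Acat1 in control rats goes from 0.80 to 0.14 with the covariate, while Bdh1 goes from 1.32 to 1.10.

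Markers of fibre types and of other cells moved with cold as well. Over all genes 12.4% were called higher and 8.28% lower after cold in control rats, and 7.49% and 6.28% in knockout rats. Slow-fibre markers rose in 9 of 10 cases in control and 9 of 10 in knockout rats, and fast-fibre markers fell in 7 of 10 and 4 of 10. Adipocyte markers rose in 6 of 10 cases in control rats, with sums of 387 to 485 CPM in control_RT and 682 to 958 in control_4C. In knockout rats 2 of 10 rose, with sums of 344 to 901 CPM in KO_RT and 829 to 1511 in KO_4C. At room temperature 1 of 10 adipocyte markers was higher in knockout than in control muscle (median log2 0.66), beside 2.61% of all genes. Their median log2 change was 1.10 for cold in control rats and 0.27 in knockout rats. For the difference between cold responses it was -0.91, with 0 called. Macrophage markers rose in 5 and 6 of 9 cases (sums of 124 to 199 and 183 to 293 CPM in control rats, 103 to 145 and 150.0 to 281 in knockout rats) and erythroid markers in 3 and 1 of 5. Of the liver markers 0 of 3 tested rose in either genotype. Of 7 listed brown adipocyte markers only 2, Pank1 and Ppargc1b, were among the genes measured, and 1 and 0 of them rose. Others such as Cidea and Elovl3 were absent, so brown fat cannot be judged here. With the mean of the slow-fibre markers as a covariate, the control cold calls of Bdh1 (log2 1.33, adjusted p = 0.0221) and Dbt (0.79, 0.050) were kept, and those of Acat1, Oxct1 and Bckdk ended. All 4 knockout cold calls ended with it, where calls over all genes went from 2399 to 507 in control and from 1596 to 474 in knockout rats: Bdh1 stood at 0.83 (adjusted p = 0.128), Klf15 at 0.43 (0.42), Oxct1 at 0.14 (0.64) and Bckdk at -0.27 (0.20). The SE of Bdh1 in knockout rats went from 0.21 to 0.31. The marker mean ran from 8.77 to 9.76 log2 CPM in control_RT and 9.84 to 10.5 in control_4C. In KO_RT it ran from 8.65 to 9.91 and in KO_4C from 9.70 to 10.4. Since it nearly separates cold from room temperature, its part in the cold contrasts and that of cold cannot be told apart. In bulk muscle fewer cells of a type and less RNA per cell cannot be told apart, and the part of the fat, immune and blood markers in the members' changes was not tested.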

How the data were processed

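The 32 libraries were made from rat gastrocnemius (Lexogen QuantSeq, 50 bp forward reads, per the labels' protocols). The authors deposited raw counts per Ensembl gene, all of them even for a reason no label states, and a normalised signal, which the files show to be each count divided by 1 size factor per library (0.523 to 2.06). R 3.4.3, DESeq2 1.18.1 and build Rnor_6.0 come from the submitters' processing notes; for aligner, counter and strand the sources used here give nothing. Library totals ran from 7275510 to about 25847000 counts, and no pair within a group looked like a duplicate (smallest chi-square per degree of freedom 5.70).

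In R 4.3.3, counts passed filterByExpr (minimum count 10), TMM scaling and edgeR 4.0.16's robust quasi-likelihood F test over all 32 libraries with 1 mean per group, with Benjamini-Hochberg adjustment per contrast over 11594 genes (1307 not tested). SE is the absolute log2 change over the root of F. The procedure was tested on simulated data with 200 changed genes. These counts varied independently from gene to gene, so shifts shared by many genes of a library, as in the transcript-loss index, were not covered. Alternatives were other scalings, no filter, DESeq2 1.42.0, halved counts, left-out libraries, blocks and covariates. The text names all members, listed genes always looked up or among the 3 of smallest p past the threshold per list and contrast, and the 3 genes most like each member with at least 5 CPM. Some listed genes that the rule would name are not reported here. Members and lists were chosen with earlier results of these data known. Columns KO8 and KO9 fit a title number of one sample and a description number of another and were used by group alone.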

Additional observations from a re-analysis of the deposited data

Results flagged for a closer look

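Acat1 in KO_4C replicate 4 was far above its group, at 366 CPM against 262 in the next library, a gap of 0.565 of the group's range. Bckdhb in the KO_RT column KO9 stood at 163 CPM against 119, a gap of 0.582 of the range. Of 36 pairs of member and group looked at, chance would flag about 1 in 20.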

How the results depend on the processing

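Of 9 members, the number called for cold in control rats went from 6 to 2 with the slow-fibre covariate and to 1 with the transcript-loss covariate, and for cold in knockout rats from 4 to 0 with the slow-fibre covariate. Over all genes the same fits took 2399 calls to 507 and 368, and 1596 to 474. For knockout at room temperature it went from 4 to 1 at an adjusted p of 0.01, 0 with the transcript-loss covariate, 2 with the intestinal covariate, 0 with the 2 groups fitted alone and 2 with a replicate block by number, where 303 calls over all genes went to 21, 1, 268, 0 and 220. The interaction went from 0 to 1 with 4 libraries left out and 1 with DESeq2. Single libraries left out gave 5 to 6, 4 to 4, 2 to 4, 0 to 0 and 0 to 1 members called for cold in controls, for cold in knockouts, for genotype at room temperature, for genotype at 4 °C and for the interaction, in that order. With the slow-fibre covariate, signs turned for Bckdha (control cold, log2 0.067). With the transcript-loss covariate, signs turned for Bcat2 (control cold, log2 -0.0568), Bckdha (control cold, log2 0.12), Bdh1 (room-temperature genotype, log2 -0.0367), Bckdk (room-temperature genotype, log2 0.046), Klf15 (interaction, log2 0.10), Bckdha (interaction, log2 -0.00617). With the intestinal covariate, signs turned for Bckdha (room-temperature genotype, log2 -0.00286), Bdh1 (4 °C genotype, log2 0.21), Oxct1 (interaction, log2 -0.0304). Without the 3 libraries rich in intestinal markers, signs turned for Bckdha (room-temperature genotype, log2 -0.0127), Acat1 (4 °C genotype, log2 -0.0404), Bcat2 (4 °C genotype, log2 -0.0327), Oxct1 (interaction, log2 -0.0240). With the replicate block by genotype and number, signs turned for Oxct1 (interaction, log2 -0.0233). With single libraries left out, signs turned in log2 values of Bckdha (knockout cold) from -0.0282 to 0.0974, Oxct1 (interaction) from -0.0182 to 0.0727, Acat1 (4 °C genotype) from -0.00958 to 0.18, Bckdha (room-temperature genotype) from -0.0729 to 0.0483, Bdh1 (room-temperature genotype) from -0.0412 to 0.30. None of these members was called in the contrast named, and the causes were not tested. Same-numbered libraries of a genotype deviated from their group means with correlations of -0.29 to 0.33 over 14 pairs (4 over 0.1, 2 best with their own number). These values cannot tell whether same-numbered libraries share a litter or a batch, and the main fit used no pairing. The replicate block by genotype and number gave 6 members for cold in control rats, 3 for cold in knockout rats and 0 for the interaction, and the block by number 0 at 4 °C. Over all genes, calls at 4 °C went from 6 to 121 with relative log expression factors, 125 without the 20 most abundant genes in the factors, 436 with DESeq2, 81 with halved counts, 409 with the slow-fibre and 259 with the transcript-loss covariate, and 0 to 556 with single libraries left out (most without control_4C replicate 7). Interaction calls over all genes went from 3 to 288 with 4 libraries left out and 112 with DESeq2, and to between 0 and 226 with single libraries left out (most without KO_RT replicate 3). The covariates for transcript loss and intestinal markers, the block by number and the 3 left-out libraries were chosen after seeing the data. The counts include Klf15 in control rats. Counting error is largest for Bdh1.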
